A study of Mus musculus with 4 samples.

Results

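Developmental transcription factors of the Pax, Sox, Tbx, Gata, Lhx, Dlx, Irx, En and Otx families, and of the sine oculis-related family of Six2, Six3 and Six6, specify the nervous system, muscle, heart, limbs, kidney and blood, and most of them are classed as genes of lineages other than the pancreas. DNA methylation was examined at 54 such genes among 21938 protein-coding genes of the mouse. The 54 genes were a fixed list, and enriched regions were assigned to a gene where they overlapped its body or the 2 kb upstream of its start. Methylated DNA had been captured from islets of mice aged 8 weeks by MeDIP-seq, in which an antibody against methylated cytosine enriches sheared DNA before sequencing. WT mice were C57BL/6 animals with the genotype Raptor lox/lox, so the controls carried floxed alleles too. According to the paper, the controls were littermates of the knockout mice. βRapKO mice were Raptor lox/lox with RipCre, in which a rat insulin promoter drives Cre recombinase, from a driver line of mixed background. Deletion of Raptor was therefore directed at cells that express insulin, whereas whole islets also hold other cell types. For that reason, methylation per beta cell and a shift in the share of cell types cannot be told apart. Each genotype had 2 libraries, and nothing states whether they came from separate animals, so p-values measure only the spread between these libraries. No RNA was measured in these libraries, so neither the tissue label nor the absence of expression of the 54 genes could be checked.

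Vertebrate gene starts are often rich in CpG sites, and such CpG-rich starts are as a rule free of methylation. Developmental regulators have especially long CpG-rich stretches, which in cells that do not use the gene are commonly held silent by Polycomb proteins rather than by DNA methylation. Methylation within the gene body is common and does not by itself silence a gene.

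Sequences of 3 starts show CpG-dense starts where no peak was called and the member start with a peak called in every library. Six2 keeps nephron progenitors of the kidney, and Sox2 maintains pluripotent and neural progenitor cells. Neither had an enriched region, and their starts had the highest CpG density among the members without a region that the RefSeq promoter table lists. The 250 bases before the RefSeq start, on GRCm38, lie at chr17:85688255-85688504 on the minus strand for Six2 and at chr3:34649745-34649994 on the plus strand for Sox2. Pax8, a regulator of thyroid and kidney, was the member with a peak at its start in all 4 libraries, and the same stretch lies at chr2:24475600-24475849 on the minus strand. CpG sites are in capitals.

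Six2 promoter: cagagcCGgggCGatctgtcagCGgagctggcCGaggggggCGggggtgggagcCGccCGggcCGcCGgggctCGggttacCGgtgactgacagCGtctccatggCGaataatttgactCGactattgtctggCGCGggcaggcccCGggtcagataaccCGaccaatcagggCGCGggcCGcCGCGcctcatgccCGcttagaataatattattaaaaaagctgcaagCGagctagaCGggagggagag
Sox2 promoter: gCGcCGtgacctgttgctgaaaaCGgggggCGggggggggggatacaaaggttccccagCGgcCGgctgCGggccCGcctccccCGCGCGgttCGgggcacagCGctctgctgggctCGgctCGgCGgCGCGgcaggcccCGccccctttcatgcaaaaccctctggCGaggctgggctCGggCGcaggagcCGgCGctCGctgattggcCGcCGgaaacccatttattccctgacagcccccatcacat
Pax8 promoter: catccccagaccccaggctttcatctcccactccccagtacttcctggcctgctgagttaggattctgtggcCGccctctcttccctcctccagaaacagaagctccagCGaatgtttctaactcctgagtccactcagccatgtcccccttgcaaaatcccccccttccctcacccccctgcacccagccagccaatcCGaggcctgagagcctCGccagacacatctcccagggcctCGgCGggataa

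Six2 and Sox2 held 26 and 27 CpG sites in these 250 bases, against 6 at Pax8, a gap that the choice of the densest starts sets in part. Over all members the starts were closer, with a median of 6.29 CpG sites per 100 bp within 500 bp of the start at the 27 members without a region and 5.69 at the 27 with one. The promoter table covered 37 of the 54 members. At the densest promoter of each gene, their median was 7.33 CpG sites per 100 bp, against 2.67 over all 27025 genes of the table. That table holds more genes than the 21938 protein-coding ones. Within 500 bp of the start, the medians were closer, 5.84 at the 54 members and 4.10 over all protein-coding genes.

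The 300 bases around the top of a peak are shown for the member region with the most tags, and for the 3 member regions with the largest fitted differences between genotypes. All 4 are on the plus strand of GRCm38. They lie in exon 4 and intron 4 of Lhx1, a regulator of head and kidney formation, at chr11:84520105-84520404, in intron 9 of Sox5 at chr6:143902087-143902386, upstream of the principal transcript of Sox5 but within the annotated gene at chr6:144382550-144382849, and in intron 7 of Sox6 at chr7:115644367-115644666. Sox5 and Sox6 are the related regulators that drive cartilage formation together.

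Lhx1 region: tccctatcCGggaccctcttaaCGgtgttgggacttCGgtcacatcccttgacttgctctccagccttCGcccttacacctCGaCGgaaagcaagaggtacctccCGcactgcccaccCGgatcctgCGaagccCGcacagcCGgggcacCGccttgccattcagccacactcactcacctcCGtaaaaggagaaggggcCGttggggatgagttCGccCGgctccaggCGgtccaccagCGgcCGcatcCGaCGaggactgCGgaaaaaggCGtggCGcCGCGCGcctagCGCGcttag
Sox5 intron 9 region: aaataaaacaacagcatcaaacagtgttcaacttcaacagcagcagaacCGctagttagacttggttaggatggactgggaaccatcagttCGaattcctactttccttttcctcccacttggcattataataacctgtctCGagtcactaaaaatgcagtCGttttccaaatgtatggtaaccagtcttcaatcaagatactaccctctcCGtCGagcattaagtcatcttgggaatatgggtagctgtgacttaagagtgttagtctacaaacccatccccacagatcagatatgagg
Sox5 region before the principal transcript: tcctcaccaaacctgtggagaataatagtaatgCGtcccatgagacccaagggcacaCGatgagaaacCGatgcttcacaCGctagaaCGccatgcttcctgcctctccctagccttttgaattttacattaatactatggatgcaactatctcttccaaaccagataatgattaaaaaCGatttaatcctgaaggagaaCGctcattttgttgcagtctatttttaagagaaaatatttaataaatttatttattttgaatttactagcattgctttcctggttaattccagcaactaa
Sox6 intron 7 region: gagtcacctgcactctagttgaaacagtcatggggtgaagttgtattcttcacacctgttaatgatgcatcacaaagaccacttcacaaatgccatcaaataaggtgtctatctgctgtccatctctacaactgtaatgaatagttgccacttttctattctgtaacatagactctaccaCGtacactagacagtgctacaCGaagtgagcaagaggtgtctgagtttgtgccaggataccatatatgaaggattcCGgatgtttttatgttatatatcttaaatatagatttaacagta

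The Lhx1 stretch held 29 CpG sites, or 9.67 per 100 bp, near the 10.4 of the Six2 promoter, so captured places were not all CpG-poor. By contrast, the Sox5 stretches held 6 and 7 and the Sox6 stretch held 3. At Lhx1 the region held 2 peaks in each library, and the stretch shown is the one with the higher score in βRapKO library 1 and the lower score in the other 3 libraries, since the other peak covers a UTR of an annotated transcript. Every 50-base word of the Lhx1, Sox6 and both Sox5 stretches occurred at 1 place in GRCm38.

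Across the 4 libraries 25585533 to 31330751 tags remained after filtering, and MACS called 117638 to 151093 peaks, the most in WT library 2. Merging gave 186169 regions, and 75052 of them were called in every library (shared regions). The level of a region is given as CPM, its tags per 1000000 tags after filtering, and a library without a peak has no value there, which does not mean that it had no tags. The strongest region of Rptor, the gene that encodes Raptor, had 9.69 and 9.86 CPM in WT and 7.70 and 9.43 CPM in βRapKO (log2 fold-change −0.19 ± 0.13 (SE), adjusted p = 0.866, edgeR). A methylated region does not report the deletion, so it is no check of the genotype.

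Many of the members held no enriched region. Of the 54 members, 27 (50.0%) had no region in any library, against 22.3% of all protein-coding genes. These 27 were Pax1, Pax9, Sox1, Sox2, Sox14, Sox17, Sox18, Sox21, Tbx2, Tbx3, Gata2, Six2, Six3, Six6, Lhx3, Lhx5, Lhx9, Dlx1, Dlx2, Dlx5, Dlx6, Irx3, Irx4, Irx5, En1, En2 and Otx2. They include Sox17, a regulator of endoderm, Gata2, a regulator of blood stem cells, En1 and En2, which pattern the midbrain and hindbrain, and Otx2, which patterns the forebrain. Six2, Six3 and Six6, which act in kidney, forebrain and eye, and both En genes were without a region, as were 3 of 4 Irx genes, which pattern the neural plate and heart, and 4 of 6 Dlx genes, which pattern the jaws and forebrain. By contrast, 5 of 7 Pax genes and 6 of 8 Tbx genes, the T-box regulators of heart, limb and pharynx, had at least 1 region. Of the remaining families, 5 of 11 Sox, 5 of 8 Lhx, 2 of 3 Gata and 1 of 2 Otx genes had a region.

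The lower share of members with a peak was seen in each library taken alone. A peak was found at 22 and 26 members in the WT libraries and at 22 and 24 in the βRapKO libraries, that is 40.7%, 48.1%, 40.7% and 44.4%. Over all protein-coding genes the same shares were 70.1%, 73.9%, 69.2% and 70.2%. With WT library 2 left out, 29 members and 24.4% of all genes had no peak, and leaving out each of the other libraries gave 27 or 28 members.

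Gene length and the CpG content of the start differed too, and the comparison was therefore repeated within classes of genes. The median window of a member was 11630 bp, against 19425 bp over all genes. Among windows up to 20 kb, 23 of 33 members (69.7%) had no region, against 37.8% of all such genes. Among longer windows the shares were 4 of 21 members (19.0%) and 6.20%. The start was called CpG-rich where the 500 bp on each side had over 50% G and C and a ratio of observed to expected CpG above 0.6. By this measure 40 of 54 members (74.1%) had a CpG-rich start, against 44.4% of all genes. Of these 40, 24 (60.0%) had no region, against 11.8% of all genes with such a start. Where a CpG-rich start and a window up to 20 kb coincided, 21 of 29 members (72.4%) had none, against 25.5%. The 14 members with a CpG-poor start went the other way, with 3 (21.4%) without a region against 30.7%. Window length was not matched there, with a median of 33316.5 bp at these members and 13952 bp over all such genes. Per 10 kb of window these members had fewer regions, 0.700 against 0.818. A stretch without regions of over 30 kb contained the start at 64.3% of them, against 32.8%. These shares are descriptions and were not tested.

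**Figure D1:**
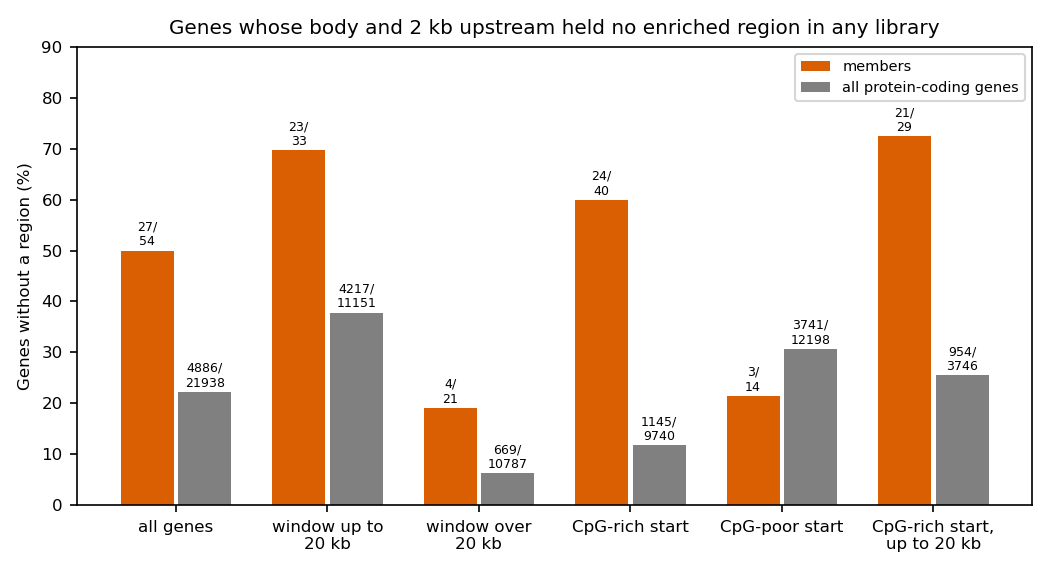
Share of genes without an enriched region in the gene body and 2 kb upstream, in percent, for the 54 members (orange) and all protein-coding genes (grey), in all genes and within classes of window length and CpG content of the start. Numbers above bars are genes without a region over genes in the class, and the members' bar is the higher one in every class but that of CpG-poor starts. Window length is not matched in that class.

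Regions also lay at a greater median distance from the members. The median distance from a member's start to the nearest region was 8869.5 bp, against 3173 bp over all genes. The stretch without regions that contained the start had a median length of 39245.5 bp, against 14692 bp, and it exceeded 30 kb at 37 of 54 members (68.5%), against 26.5% of all genes. Pax1, which patterns the vertebrae, had the greatest distance of 54187 bp, in a stretch of 118659 bp. Gata2 had the smallest distance among members without a region, 2012 bp, just outside the window.

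**Figure D2:**
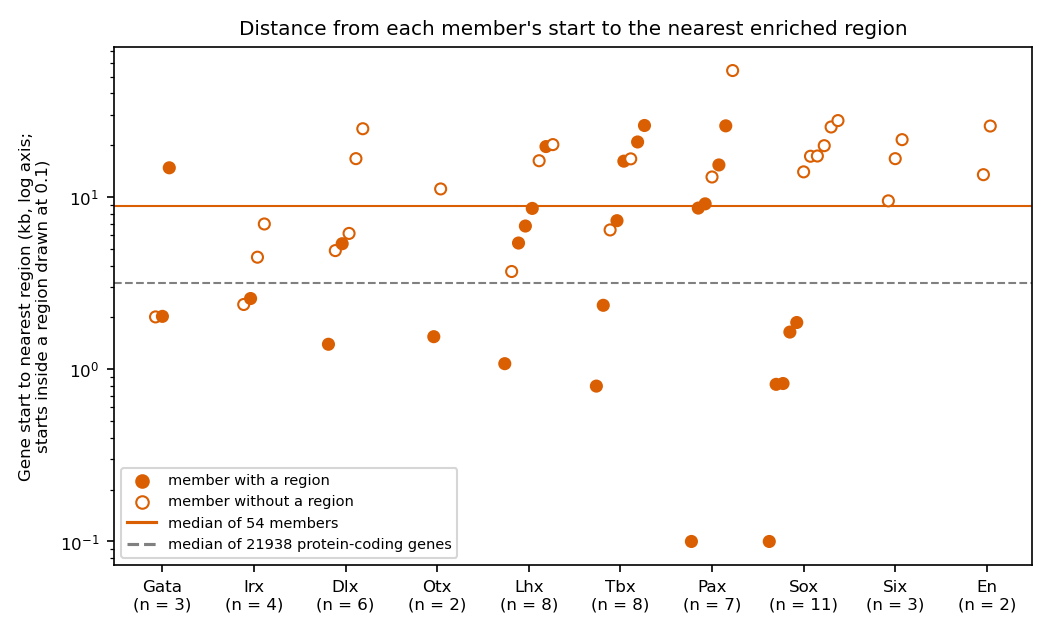
Distance from each member's start to the nearest enriched region, in kb on a log axis, by family (n, number of members); filled points have a region in their window and open points have none. The members' median line (8869.5 bp) lies above the line for all 21938 protein-coding genes (3173 bp), and Six2, Six3, Six6, En1 and En2 all lie above both lines.

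At the start itself, a peak within 500 bp in all 4 libraries was found at 1 of 54 members, against 5.01% of all genes. A peak in any library was found at 2 members, against 12.9%. The first was Pax8, whose region at chr2:24473917-24475911 spanned the start and exons 1 and 2 and overlapped the gene Gm13415. It had 4.69 and 4.02 CPM in WT and 3.76 and 3.84 CPM in βRapKO. Both βRapKO libraries lay below both WT libraries, but the difference did not pass the test (log2 fold-change −0.19 ± 0.17, adjusted p = 0.891). The second was Sox10, a regulator of neural crest and oligodendrocytes, with a peak of 3.73 CPM at its start in WT library 2 and none called in the other 3 libraries. Both have CpG-poor starts. Among CpG-poor starts the shares with a peak in all 4 libraries were close, 7.14% of 14 members and 7.36% of all such genes. In any library they were 14.3% and 18.1%. Among CpG-rich starts 0 of 40 members had a peak, against 2.07% of all such genes in all 4 libraries and 6.28% in any. Counted from the start of any annotated transcript, 4 members (Lhx1, Pax8, Sox5 and Sox6) had a peak in all 4 libraries and 9 had a peak in any. The low count at member starts thus depended on how the start was defined. Shares over all genes were not computed for this definition, so these counts cannot be set against 5.01% and 12.9%.

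The 27 members with a region held 260 regions, none shared between members. Of these, 96 were shared by all 4 libraries, 54 were called in 3, 37 in 2 and 73 in 1. WT library 2 alone accounted for 41 of the 73, and this was also the library with the most tags and peaks. Over all regions it accounted for 23929 of the 51195 called in 1 library. The share called in all 4 libraries was 36.9% at the members and 40.3% over all regions. The regions were unevenly spread, with 132 at Sox5, 38 at Sox6 and 90 at the other 25 genes. Among the other 25, Pax5 held 20 regions, Pax7 9, Pax2 7, Pax3 and Tbx15 6 each, and Pax8 and Tbx4 4 each. Tbx5, Tbx20, Lhx4 and Gata5 held 3 each, and Lhx1, Lhx6, Gata3, Dlx3, Sox8, Sox10, Sox11 and Tbx1 held 2 each. Lhx2, Lhx8, Dlx4, Irx6, Otx1 and Tbx18 held 1 each. In 10 of the 27 no region was shared by all libraries, namely Lhx2, Lhx6, Lhx8, Gata5, Dlx3, Dlx4, Irx6, Sox8, Sox11 and Tbx1. Of these, Sox8, which acts with its relatives in testis and neural crest, had the highest level, at 6.76 and 3.35 CPM in WT and 5.31 CPM in βRapKO library 2 over exon 3, with no peak called in βRapKO library 1. Sox5 and Sox6 have the longest windows, of 955553 and 569925 bp. Per 10 kb of window, all members together had 0.890 regions, against 0.911 over all genes, and without Sox5 and Sox6 they had 0.646. Sox5 alone had 1.38 and Sox6 had 0.67. Introns of the principal transcript held 136 of the 260 regions, 71 lay in the annotated gene outside the principal transcript, 47 covered an exon, 4 were upstream and 2 covered the start. The regions had a median of 1.60 CpG sites per 100 bp, against 1.61 over the 96744 regions of all protein-coding genes. Of the 17 members with a shared region, 8 (47.1%) had such a region over the last exon of the principal transcript. The share was 34.8% over the 13365 protein-coding genes with a shared region. The 8 members were Gata3, Lhx1, Pax5, Sox5, Sox10, Tbx4, Tbx5 and Tbx20.

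The highest level was at Lhx1. Its region at chr11:84518473-84522572 covered exons 2 to 5 and had 10.1 and 11.6 CPM in WT, and 7.67 and 8.98 CPM in βRapKO. The genotypes did not overlap, with means of 10.9 ± 1.09 and 8.32 ± 0.929 CPM (SD, n = 2 each). The difference did not pass the test (log2 fold-change −0.38 ± 0.13, adjusted p = 0.849), and it ranged from −0.92 to −0.22 over the alternatives in processing. A further Lhx1 region upstream of the gene, over Lhx1os, had 5.43 and 5.43 CPM in WT and 5.65 and 4.73 CPM in βRapKO, where the genotypes overlapped.

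In the Sox family the highest level was in intron 9 of Sox5, at chr6:143885066-143887507, with 7.86 and 7.44 CPM in WT and 6.78 and 6.62 CPM in βRapKO (log2 fold-change −0.19 ± 0.12, adjusted p = 0.866). The genotypes did not overlap there. Of the 50-base words around its summit, 14.7% occurred at 1 place in the genome, and the median word occurred at 11 places, so whether its reads come from this copy was not tested.

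In the Otx family it was at Otx1, a regulator of forebrain and inner ear, where a region at chr11:22004442-22009263 reached the 2 kb window from upstream and also overlapped Ehbp1. It had 5.198 and 8.36 CPM in WT and 4.21 and 6.92 CPM in βRapKO, a spread within each genotype larger than that between them. Within the window itself only WT library 2 had a peak. In the Tbx family it was over the last exon of Tbx5, a regulator of heart and forelimb, at chr5:119882353-119884843, with 5.35 and 5.39 CPM in WT and 3.94 and 6.48 CPM in βRapKO. The 2 βRapKO libraries lay on opposite sides of WT.

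In the Pax family the highest level was in intron 6 of Pax5, which commits lymphoid cells to the B lineage, at chr4:44614720-44617429. It had 5.28 and 4.09 CPM in WT and 3.59 and 3.77 CPM in βRapKO, without overlap (log2 fold-change −0.34 ± 0.18, adjusted p = 0.860). The value was −0.065 with stricter peaks and −0.064 where merged peaks had to overlap by 50%, and per kb of peak it turned to 0.017, with 1.97 and 2.42 CPM per kb in WT and 2.16 and 2.26 in βRapKO, which overlapped. In the Gata family it was over the last exon of Gata3, a regulator of T cells, at chr2:9857681-9860208, with 3.99 and 4.28 CPM in WT and 3.90 and 4.49 CPM in βRapKO. These values overlapped. No region of a Dlx, Irx or En gene, and none of Six2, Six3 or Six6, was called in every library.

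**Figure D3:**
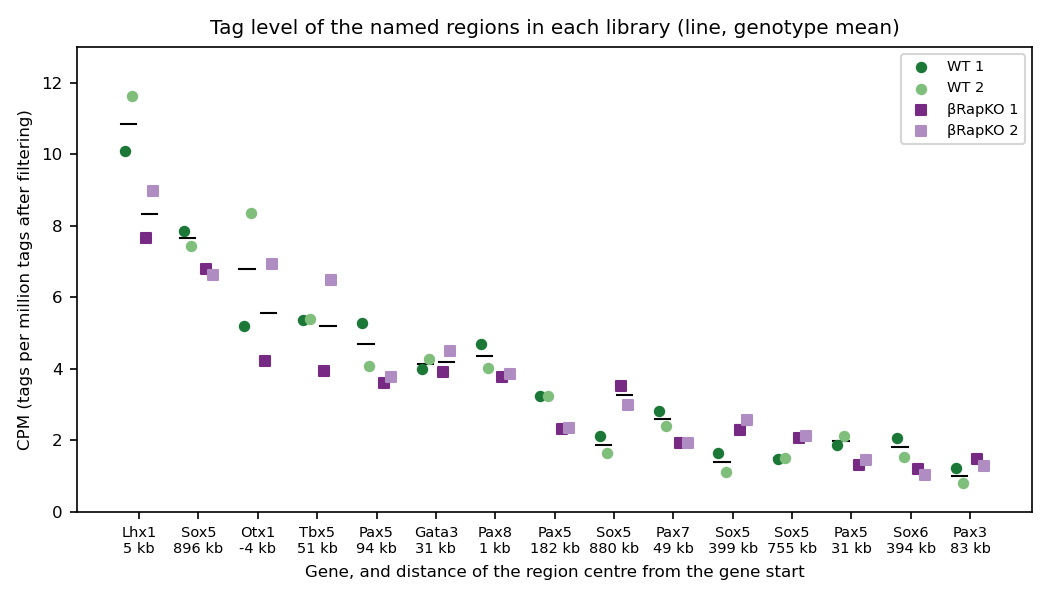
Level of the 15 named shared regions, in CPM, for each library (circles, WT; squares, βRapKO; line, mean of the genotype), labelled by gene and by the distance of the region's centre from the gene start. Levels ranged from 11.6 CPM at Lhx1 to 0.798 CPM at Pax3. Libraries of a genotype stood farther apart than the genotype means at Otx1, Tbx5, Gata3, Pax8, Pax3 and the highest Pax5 region.

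The genotypes were compared at the 96 shared regions of the members. None passed an FDR under 0.05 with a fold-change above 1.5 in either direction (edgeR), and neither did any of the 75052 regions tested (0.0% in each direction). The smallest adjusted p at a member was 0.651. DESeq2 and limma called no member region either. At an unadjusted p under 0.05 these fits had 0 and 4 member regions lower and 2 and 3 higher. The shares of all regions were not computed for them, so these counts cannot be set against a background. At an unadjusted p under 0.05, 4 member regions were lower in βRapKO (3.93% of all regions were) and 3 were higher (1.88%).

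The mean CPM in βRapKO was below WT at 61 member regions and above at 35, while over all regions 61.0% were below and 39.0% above. The median log2 fold-change was −0.10 at the members and −0.06 over all regions. Both depended on the scaling. Scaled by the tags inside peaks, 36 member regions were below and 60 above, while 31.4% of all regions were below and their median moved to 0.10. With tags per kb of peak, 75 member regions were below and 21 above, while 79.8% of all regions were below and their median was −0.17. Both βRapKO libraries lay below both WT libraries at 27 member regions (25.3% of all regions did) and above at 12 (11.6%). A fold-change above 1.5 was found at 1 member region that was lower (1.77%) and 2 that were higher (1.29%).

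**Figure D4:**
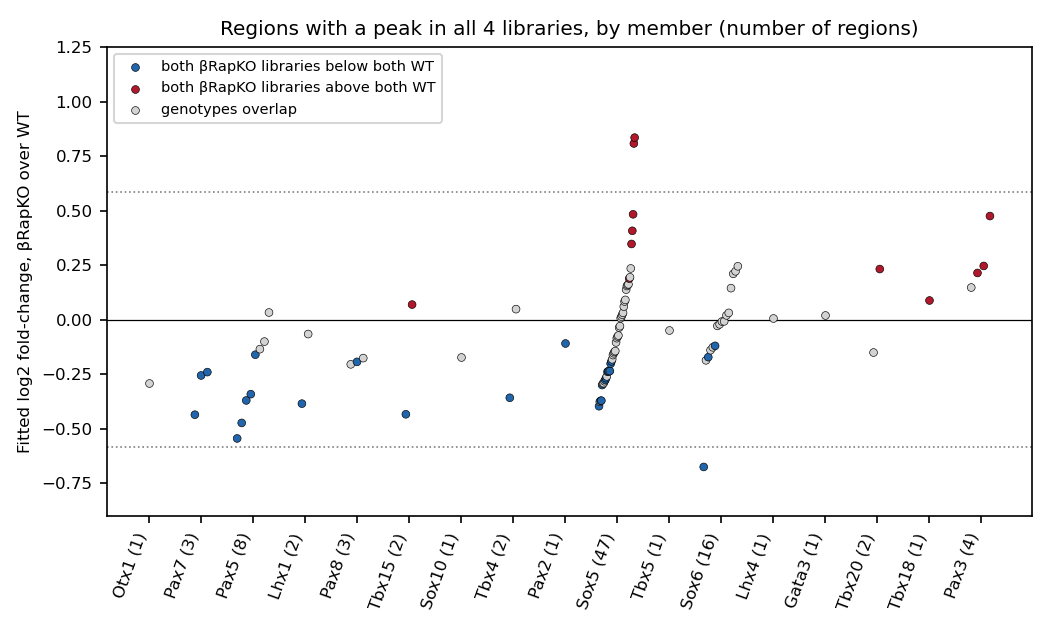
Fitted log2 fold-change of βRapKO over WT at the 96 shared member regions, by gene (number of regions in parentheses), coloured by whether the libraries of both genotypes were apart; dotted lines mark a fold-change of 1.5. Most points lie between the dotted lines, and the 2 above the upper line are both at Sox5.

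By gene, the directions varied. Pax5 had 7 of 8 regions below WT, and in 5 of them the genotypes did not overlap. Pax7, which maintains muscle satellite cells, had all 3 of its regions below without overlap. Pax3, a regulator of neural crest and muscle precursors, had all 4 above, and 3 without overlap. Sox5 had 28 below and 19 above, and Sox6 had 11 below and 5 above. The genotypes overlapped at 30 of 47 Sox5 regions and 13 of 16 Sox6 regions. Among the Tbx genes 4 regions were below and 4 above. Over all regions, the genotypes were without overlap and lower in βRapKO at 25.3%, and higher at 11.6%.

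The lowest fitted values were at Sox6, Pax5 and Pax7. Intron 7 of Sox6, at chr7:115643829-115645090, had 2.07 and 1.53 CPM in WT and 1.198 and 1.03 CPM in βRapKO (log2 fold-change −0.67 ± 0.22, adjusted p = 0.823). Exon 5 of Pax5, at chr4:44678770-44680121, where Gm12462 also lies, had 1.88 and 2.11 CPM in WT and 1.30 and 1.44 CPM in βRapKO (−0.54 ± 0.19, adjusted p = 0.849). Exon 10 of Pax5, at chr4:44528306-44529567, had 3.24 and 3.22 CPM in WT and 2.33 and 2.33 CPM in βRapKO (−0.47 ± 0.18, adjusted p = 0.849). In both Pax5 regions the libraries of a genotype were closer together in CPM than the genotypes, whereas at Sox6 the WT libraries stood farther apart than the nearest libraries of the genotypes. Per kb of peak, exon 10 of Pax5 had 4.19 and 2.62 CPM in WT and 2.48 and 2.78 CPM in βRapKO, which overlapped. Exon 5 of Pax5 had 1.55 and 1.80 CPM per kb in WT and 1.23 and 1.11 in βRapKO, without overlap. A region over exon 5 of Pax7, at chr4:139784126-139784918, had 2.81 and 2.39 CPM in WT and 1.92 and 1.92 CPM in βRapKO (−0.44 ± 0.20, adjusted p = 0.858).

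The highest fitted values were at Sox5 and Pax3. The Sox5 region at chr6:144381808-144384000 had 1.64 and 1.12 CPM in WT and 2.29 and 2.57 CPM in βRapKO (log2 fold-change 0.83 ± 0.23, adjusted p = 0.721). The region in intron 9 of Sox5, at chr6:143900932-143902831, had 2.11 and 1.63 CPM in WT and 3.52 and 2.98 CPM in βRapKO (0.81 ± 0.21, adjusted p = 0.651). Both had more tags in each βRapKO library than in each WT library, but per kb of peak the first was 0.09 and the second turned to −0.20. In intron 9 the peaks were 910 and 744 bp wide in WT and 1679 and 1635 bp in βRapKO. Their fold enrichment over the local background, as given by MACS, was 7.21 and 6.81 in WT and 7.62 and 6.14 in βRapKO, so that the tags were spread over wider peaks of overlapping height. A region in intron 5 of Sox5, at chr6:144026364-144027552, had 1.49 and 1.5 CPM in WT and 2.05 and 2.13 CPM in βRapKO (0.48 ± 0.18, adjusted p = 0.850, and 0.28 per kb of peak). Intron 7 of Pax3, at chr1:78113333-78114005, had 1.21 and 0.798 CPM in WT and 1.47 and 1.27 CPM in βRapKO (0.48 ± 0.23, adjusted p = 0.858).

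Of the 260 member regions, 8 were called in the WT pair and in no βRapKO library (4.16% of all regions were), and 3 were called the other way round (1.58%). The excess in WT over all regions depended on the number of peaks called, since with an equal number per library 4613 regions were called in the WT pair alone and 4968 in the βRapKO pair alone, in place of 7747 and 2947, and the member regions were 7 and 3. The 8 were 4 at Sox5, 2 at Sox6 and 1 each at Pax5 and Tbx1, and the 3 were all at Sox5. Exon 13 of Sox5, at chr6:143840586-143842586, had 3.60 and 2.43 CPM in WT. Tbx1, a regulator of the pharyngeal arches, had 1.99 and 1.88 CPM in WT over exons 2 and 3, at chr16:18584114-18586427. Another, upstream of the principal Sox5 transcript at chr6:144495204-144496473 and overlapping Sox5os2, had 2.03 and 1.69 CPM in WT, and 53.8% of the 50-base words around its summit occurred at 1 place in the genome. The 3 regions called in βRapKO alone were weaker, between 1.13 and 1.57 CPM. They lay at chr6:144379897-144380785, chr6:144367019-144367882 and chr6:144474146-144474772, all within the annotated Sox5 gene upstream of its principal transcript.

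Several of these Sox5 regions were neighbours, a stretch singled out after its values were seen. Within chr6:144367019-144384000, with centres 399073 to 414526 bp from the Sox5 start, 5 regions followed each other. Both shared regions had more tags in each βRapKO library than in each WT library. One was the upper Sox5 region given above, and the other, at chr6:144374665-144376035, had 2.11 and 2.17 CPM in WT and 2.64 and 3.05 CPM in βRapKO (log2 fold-change 0.41 ± 0.19, adjusted p = 0.858). Of the 3 others, 2 were called in both βRapKO libraries only and 1 in WT library 2 only, at 1.44 CPM.

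**Figure D5:**
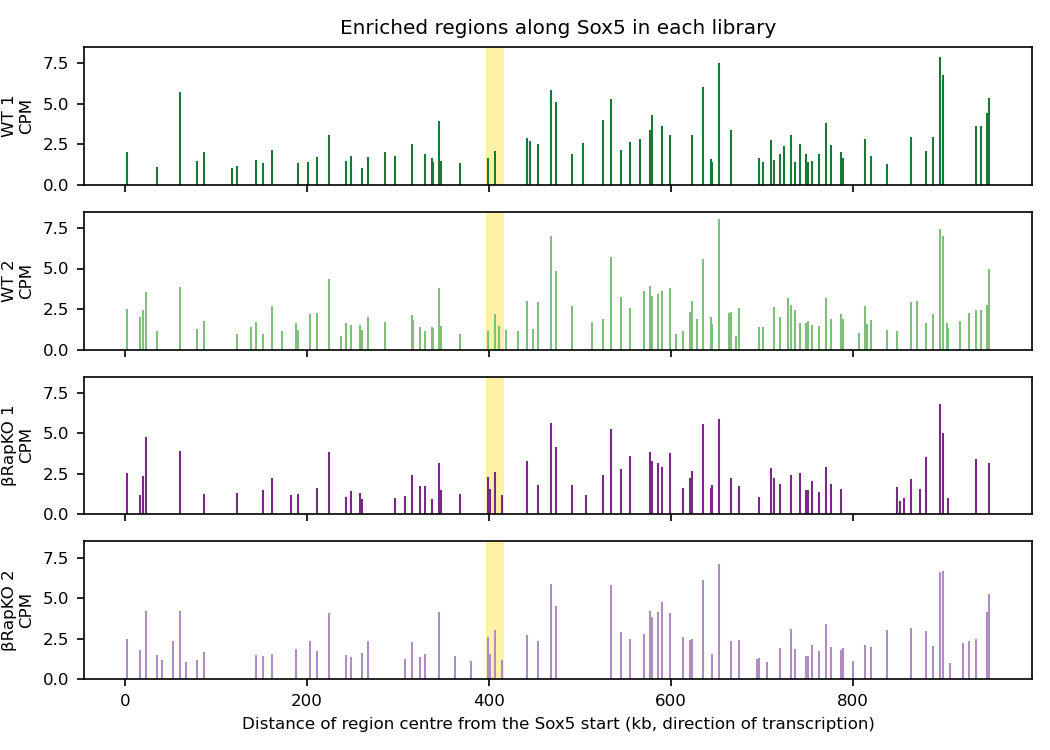
Level of every enriched region along Sox5, in CPM, in each library, against the distance of the region's centre from the Sox5 start in kb; a library without a peak has no line, and the yellow band marks the stretch of 5 regions. The profiles share their high regions across libraries, up to 7.86 CPM in WT library 1 and 6.78 CPM in βRapKO library 1 at the region of intron 9.

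A list of 25 other genes of the same families was examined alongside. It shares Sox9, Gata4 and Gata6 with the list of pancreas regulators given at the end, so their regions count in both. Of the 25 genes, 9 (36%) had no region, against 22.3% of all protein-coding genes. Of their 18 tested regions, 0 passed the test in either direction, with 3 lower (3.93% of all regions were) and 0 higher (1.88%) at an unadjusted p under 0.05 (edgeR). The mean CPM was below WT at 13 and above at 5 (61.0% and 39.0% of all regions), and the median log2 fold-change was −0.12. The smallest p values were at Sox13 and Six5. Intron 1 of Sox13 had 3.01 and 2.33 CPM in WT and 1.71 and 1.75 CPM in βRapKO (log2 fold-change −0.62 ± 0.21, adjusted p = 0.849). Per kb of peak these were 1.505 and 2.07 CPM in WT and 1.58 and 1.97 CPM in βRapKO, which overlapped. A region upstream of Six5 that overlapped Dmpk had 5.63 and 6.80 CPM in WT and 4.11 and 4.94 CPM in βRapKO (−0.46 ± 0.17, adjusted p = 0.849).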

How the data were processed

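The samples were 4 MeDIP-seq libraries, 2 WT and 2 βRapKO, grouped by their labels. The authors aligned 50-cycle reads to mm10 (Bowtie2 2.2.5) and called peaks per library with MACS (version 1.4.2 per the file headers, 0.14.2 in the submitters' processing notes, which also list mm9), without a control library, at p 1e-05 with 1 tag kept per position. No peak ended beyond a GRCm38 chromosome. The deposited files give per peak a raw count of tags, a score (the negative log10 of the caller's p, times 10), and a fold enrichment ratio over the local background. Without a control, repeats and other places of tag build-up can be called too, and a deeper library passes the cutoff more easily.

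Peaks of the autosomes, X and Y were merged at 1 bp of overlap, tags were added per library and region, and CPM used the tags after filtering. Regions called in every library were fitted with edgeR 4.0.16 in R 4.3.3 (quasi-likelihood, no further scaling, Benjamini-Hochberg over all 75052, SE from the F statistic). In simulated data 109 of 200 regions with 2-fold changes were recovered, with 6 false calls. CPM directions and counts used genotype means. Genes came from GENCODE M21 on GRCm38, with exons numbered on 1 principal transcript, and promoters from RefSeq (GRCm38.p6). Alternatives also used DESeq2 1.42.0 and limma 3.58.1, and other steps Python 3.11.15. Regions were named by rule, namely the highest mean CPM per family, the 4 largest fitted values per direction, up to 3 per direction with a peak in 1 genotype only, and those at a start. The members and lists were chosen with earlier results of these data known. Tags outside peaks were not used here. The replicate numbers come from the labels and are not stated to mark a shared animal or day.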

Additional observations from a re-analysis of the deposited data

How the results depend on the processing

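No member region passed the test under any alternative. DESeq2 called 2 of all regions higher, where the other fits called none. The median log2 fold-change of the 96 member regions was 0.063 when scaled by tags inside peaks, −0.039 with TMM, −0.037 with DESeq2, −0.16 per kb of peak and −0.15 with stricter peaks, and −0.14 to −0.043 when 1 library was left out (−0.05 without WT library 2, −0.043 without βRapKO library 1). Member regions below WT numbered 36 and above 60 when scaled by tags inside peaks, and 28 and 11 with stricter peaks. These were 37.5% and 71.8% below at the members, against 31.4% and 63.9% over all regions. Regions above numbered 21 per kb of peak and 20 with at least 50 tags in every library, which tested 61 member regions. In these fits 78.1% and 67.2% of member regions were below, against 79.8% and 66.1% of all regions. Fitted values in place of mean CPM gave 60 below and 36 above, an alternative added after seeing the data.

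Member regions past 1.5-fold were few. Those lower numbered 0 when scaled by tags inside peaks, with limma or at least 50 tags, 3 per kb and 2 with an overlap of 50%. Those higher numbered 4 when scaled by tags inside peaks, and 1 per kb, with stricter peaks and with at least 50 tags. Leaving out 1 library gave 2 to 5 lower, with 5 without βRapKO library 2 and 2 without each of the others, and 1 to 4 higher, with 1 without WT library 2 and 4 without WT library 1. The lone library was then assumed to vary like the other genotype.

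The fold-changes of 5 regions changed sign, from 0.021 at Gata3, −0.046 at Tbx5, −0.34 at the top Pax5 region, −0.29 at Otx1 and 0.81 in intron 9 of Sox5. Gata3 was −0.0035 with tags before removal of duplicates, −0.47 per kb, and −0.084 to 0.12 when 1 library was left out, negative without WT library 1 or βRapKO library 2. Tbx5 was 0.11 when scaled by tags inside peaks, 0.011 with TMM, 0.0091 with DESeq2, and −0.45 to 0.27 when 1 library was left out, positive without βRapKO library 1. Per kb, the top Pax5 region was 0.017, Otx1 was 0.15 and intron 9 of Sox5 was −0.20. Otx1 was −0.69 to 0.099 when 1 library was left out, positive without WT library 2 or βRapKO library 1. The causes were not tested.

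Members with a peak at the start in any library numbered 5 within 1000 bp, and 9 from any transcript start, of which 4 in all 4 libraries. For these definitions the shares over all genes were not computed. Members with a region numbered 21 to 31, with stricter peaks and 5 kb upstream as the extremes. With an equal number of peaks per library, 7 member regions were called in WT only and 3 in βRapKO only, while over all regions the counts moved from 7747 and 2947 to 4613 and 4968.

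In the fit with the replicate number as a block, 61 member regions were below WT and the median was −0.09, and no call changed. Deviations of libraries with the same number correlated at 0.0474, so the numbers are not taken as a pairing. With 2 libraries per genotype the simulation recovered 109 of 200 changes of 2-fold, and smaller changes were not simulated. Windows of equal length, as in a test of tags outside peaks, were not run.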

Other observations

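Regulators of the pancreas itself, a list of 26 genes among them Pdx1 and Neurog3, held 94 regions. Of the genes, 9 (34.6%) had none, against 22.3% of all protein-coding genes. Glis3 held more of the regions, and more of the tested ones, than any other gene of the list, so the counts depend much on it. Sox9, Gata4 and Gata6 were also in the list of other genes of the same families. Of 36 tested regions, 19 had a mean CPM below WT and 17 above (61.0% and 39.0% of all regions). The median log2 fold-change was −0.03, against −0.06 over all regions. None passed the test, with 3 lower (3.93% of all regions were) and 1 higher (1.88%) at an unadjusted p under 0.05 (edgeR). A region upstream of Nkx6-1, which maintains beta cell identity, had 6.76 and 7.21 CPM in WT and 4.83 and 4.25 CPM in βRapKO (log2 fold-change −0.62 ± 0.15, adjusted p = 0.549). Exon 10 of Hnf4a, a regulator of liver and beta cells, had 2.46 and 1.72 CPM in WT and 3.01 and 3.29 CPM in βRapKO (0.60 ± 0.22, adjusted p = 0.849). In both the genotypes did not overlap. At Hnf4a the peaks were 1099 and 670 bp wide in WT and 1726 and 2116 bp in βRapKO, and per kb of peak the direction turned, with 2.24 and 2.57 CPM in WT and 1.74 and 1.56 CPM in βRapKO (−0.54 in the fit per kb). At Nkx6-1 the fit per kb gave −0.68.

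Hox genes, which pattern the body axis and lie in clusters, were nearly without regions. Of 39 Hox genes, 38 had none, no Hox gene had a region in all 4 libraries, and the median distance from a start to the nearest region was 39373 bp.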
